A study of Sus scrofa with 5 samples.

Results

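T cells with RNA of FOXP3, the transcription factor that defines regulatory T cells, were described in pig skin grafts. The cells were chosen by their measured RNA. A cell was taken when it had at least 500 detected genes, at least 1 unique molecular identifier (UMI, the tag that marks 1 captured RNA molecule) of CD2, CD3E or CD3D, at least 1 UMI of FOXP3, no UMI of IL17A or IL17F, and less than 2% of its UMIs from the fibrillar collagen genes COL1A1, COL1A2 and COL3A1. This rule found 73 cells among 28654 with at least 500 genes, and among 3588 T cells that met every part of the rule except that on FOXP3. They are called FOXP3-detected T cells below, and the other 3515 are called FOXP3-undetected T cells, because a cell in which no FOXP3 molecule was captured may still express the gene.

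Regulatory T cells restrain other lymphocytes. FOXP3 holds their programme in place together with partners of the Ikaros family (IKZF2, IKZF4), and the cells capture interleukin 2 through the high-affinity receptor chain IL2RA and take the costimulatory ligands CD80 and CD86 off antigen-presenting cells through CTLA4. In skin they are known for restraining inflammation after injury and for supporting repair, in part through products such as amphiregulin (AREG) and TGF-beta.

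Pigs received full-thickness wounds covered with split-thickness skin grafts, that is, sheets of epidermis with part of the dermis. The grafts were left untreated or received a hydrogel loaded with a FAK inhibitor (FAK, focal adhesion kinase, relays signals from integrins), with the dressing renewed every other day. The groups were untreated and inhibitor-treated grafts at day 7, the same kinds of graft at day 90, and unwounded skin, each with 1 library of enzymatically released cells. Values given as a pair stand for the untreated graft first and the inhibitor graft second, at day 7 unless another day is named. The labels give neither breed, age nor sex, and they do not say how many animals stand behind a library or whether the untreated grafts wore an empty hydrogel.

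The libraries held between 18485301 and 79671374 UMIs. The median depth of FOXP3-detected T cells was 3410 and 3071.5 UMIs, against 2688 and 2225 UMIs in the FOXP3-undetected T cells of the same libraries. Their median mitochondrial share was 6.17% and 3.59% of UMIs, close to the 6.30% and 3.39% of the FOXP3-undetected T cells. Of the cell barcodes, 320 occurred in more than 1 library, and none belonged to a FOXP3-detected T cell. A doublet score (Scrublet) placed 3 FOXP3-detected T cells of the untreated graft and 2 of the inhibitor graft at day 7 among its top-scoring cells. These were kept, and the values without them are among the alternatives.

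FOXP3 RNA was sparse. In all barcodes together it was detected in 89, with 125 UMIs, and 109 of these UMIs lay in FOXP3-detected T cells. A single FOXP3 UMI was seen in 48 of the 73 cells, 2 UMIs in 18, and 3 or more in 7, with at most 5 in any cell. Of the other barcodes with FOXP3, 12 had no UMI of CD2, CD3E or CD3D, 3 had fewer than 500 genes, and 1 had 4.71% collagen UMIs, whereas the highest collagen share within the rule was 0.517%. The FOXP3-detected T cell with the fewest genes had 551. Outside T cells FOXP3 was found in 5 of 6952 cells of the untreated graft at day 7 (0.0719%), at a median depth of 7238.5 UMIs, and in 0 of 7045 cells of the inhibitor graft at a median depth of 7221, and myeloid cells had it in 0 of 1649. The share among T cells in both day 7 libraries was above this background although T cells were shallower.

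The first comparison asked how common FOXP3-detected T cells were in each library. They were 36 of 1139 T cells in the untreated graft at day 7, a share of 3.16% with a 95% exact binomial (Clopper-Pearson) interval of 2.22 to 4.35. In the inhibitor graft at day 7 they were 34 of 2131 T cells, a share of 1.60% (1.11 to 2.22). The share was thus 0.505 times as large in the inhibitor graft, with an interval of 0.306 to 0.830. At day 90 only 2 of 213 T cells of the untreated graft (0.939%, 0.114 to 3.35) and 1 of 76 of the inhibitor graft (1.32%, 0.0333 to 7.11) had FOXP3. In unwounded skin it was found in 0 of 29 T cells, which allows a share of up to 10.3% (3 counts), so neither its absence nor a difference from the grafts was detectable at this depth. Each condition is 1 library, so these intervals cover counting error only, and differences between animals or grafts could not be measured.

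Set against all cells, the day 7 libraries were closer. FOXP3-detected T cells were 0.442% of 8147 cells in the untreated graft (0.310 to 0.611) and 0.362% of 9386 in the inhibitor graft (0.251 to 0.506), a ratio of 0.820 whose interval of 0.498 to 1.35 includes no difference. T cells as a whole were 14.0% and 22.7% of cells, a ratio of 1.62 (1.51 to 1.75). With 1 FOXP3 UMI enough, the number of FOXP3-detected T cells was thus nearly equal, at 36 and 34, and the number of other T cells was not. This near equality depends on the rule, by the values below. Among all cells at day 90 they were 0.0351% of 5706 in the untreated graft and 0.0261% of 3829 in the inhibitor graft, and in unwounded skin they were 0 of 1586, which allows up to 0.189%. When every T cell was thinned to 1500 UMIs and shallower ones were left out, the share was 2.57% (21 of 818) in the untreated graft and 1.06% (15 of 1418) in the inhibitor graft at day 7, a ratio of 0.412 (0.198 to 0.839). With at least 2 FOXP3 UMIs required, the shares were 1.40% and 0.375%, a ratio of 0.267. Without cells holding 3 or more UMIs of another lineage's markers, the shares lay closer and their intervals overlapped. They were 2.99% (18 of 603, 1.78 to 4.68) in the untreated and 1.84% (28 of 1523, 1.23 to 2.65) in the inhibitor graft.

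**Figure D1:**
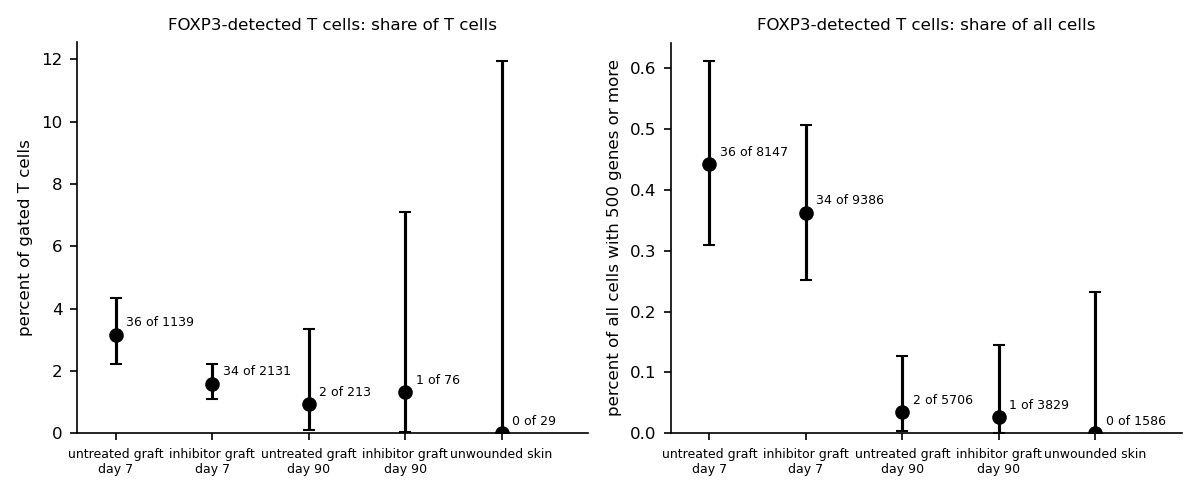
Share of FOXP3-detected T cells in each of the 5 libraries, among T cells on the left and among all cells with at least 500 genes on the right, in percent. Points are shares, bars are 95% exact binomial intervals that cover counting error only, and the labels give the cells behind each share; the day 7 intervals overlap on the right and meet at 2.22% on the left.

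The cells carried the RNA that their name implies. CTLA4 was detected in 61.1% and 61.8% of FOXP3-detected T cells in the untreated and inhibitor graft at day 7, against 9.88% and 8.06% of FOXP3-undetected T cells. IL2RA was detected in 75.0% and 55.9%, against 19.9% and 14.9%. TNFRSF4, the costimulatory receptor OX40, was detected in 66.7% and 52.9%, against 30.4% and 26.7%. None of these 3 markers was detected in 3 of 36 and 5 of 34 cells, and all of them in 14 and 6. Among FOXP3-undetected T cells of the untreated graft, 624 of 1103 had none of the 3 and 34 had all.

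A narrower comparison set the cells against helper T cells, here T cells with a CD4 UMI and no UMI of FOXP3, CD8A or CD8B (124 in the untreated and 138 in the inhibitor graft at day 7). CTLA4 was detected in 23.4% and 17.4% of these helper T cells and IL2RA in 25.8% and 26.1%, well under the shares in FOXP3-detected T cells. TNFRSF4 was detected in 57.3% and 60.9% of them, so this marker did not separate the groups. IKZF4, which encodes the FOXP3 partner Eos, was detected in 22.2% and 14.7% of FOXP3-detected T cells, in 1.63% and 0.525% of FOXP3-undetected T cells, and in 2.42% and 0% of helper T cells. IKZF2, which encodes Helios, was detected in 58.3% and 55.9% of FOXP3-detected T cells and in 28.2% and 13.8% of helper T cells.

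**Figure D2:**
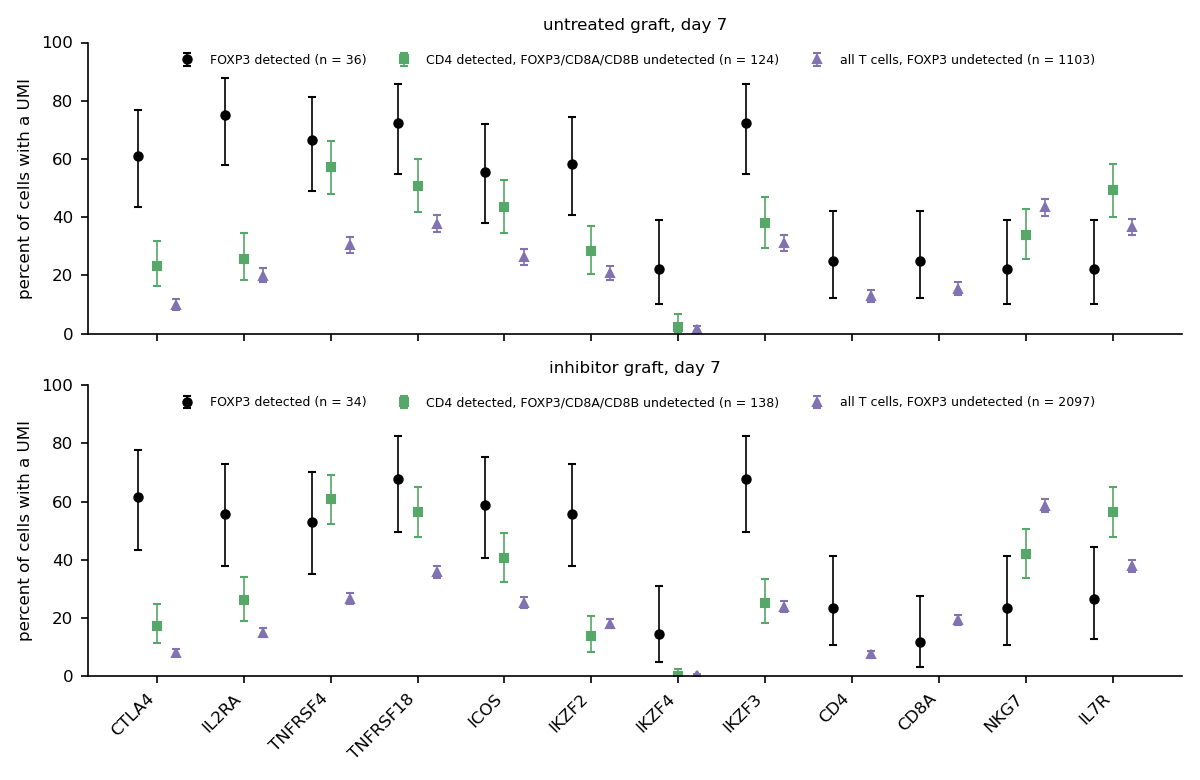
Percent of cells with at least 1 UMI of 12 genes in FOXP3-detected T cells, CD4-detected helper T cells and all FOXP3-undetected T cells, in 1 panel for each day 7 library, with 95% exact binomial intervals that cover counting error only. CTLA4, IL2RA, IKZF2 and IKZF4 are detected more often in FOXP3-detected T cells than in both other groups in both libraries, and TNFRSF4 lies at the level of helper T cells. NKG7 and IL7R lie below their level in all FOXP3-undetected T cells.

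Within the 70 FOXP3-detected T cells of day 7 the markers did not occur in the same cells throughout. CTLA4 and IL2RA were both seen in 30, CTLA4 and TNFRSF4 in 28, IL2RA and TNFRSF4 in 31, and TNFRSF4 and the related TNFRSF18, which encodes GITR, in 33. Cells with 2 or more FOXP3 UMIs had CTLA4 in 68.8% against 55% of cells with 1 UMI in the untreated graft, and in 87.5% against 53.8% in the inhibitor graft. The median depths behind these shares were 4040.5 against 3301 UMIs in the untreated graft and 2580.5 against 3141.5 in the inhibitor graft. CD4, the coreceptor of helper and most regulatory T cells, was captured alone in 12 of the 70 cells, CD8A alone in 8, both in 5 and neither in 45. These coreceptor genes are therefore too thinly captured to assign most of the cells. The helper T cells were chosen without CD8A, so T cells with RNA of both CD4 and CD8A are not among them.

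RNA of other lineages was present in the cells. The summed level of keratinocyte markers was 230 CPM (UMIs per 1000000 UMIs of the summed cells) in FOXP3-detected T cells of each day 7 library, against 3446 and 3128 CPM in the FOXP3-undetected T cells of the untreated and inhibitor graft, of which 1 cell held 6217 of 16294 UMIs and 1 held 9742 of 23884. Cell by cell the keratinocyte markers differed less, with 3 or more UMIs in 4 of 36 FOXP3-detected and 142 of 1103 FOXP3-undetected T cells of the untreated graft. The summed level of 11 myeloid markers was 13.1 and 26.6 CPM, against 1181 and 598 CPM. In the untreated graft C1QA, C1QB, C1QC, CSF1R, CD163, SPI1, CD14 and FCER1G were all at 0 in FOXP3-detected T cells. Fibroblast markers summed to 972 and 584 CPM, against 1850 and 1809 CPM, but 12 of 36 FOXP3-detected T cells of the untreated graft had 3 or more of their UMIs, against 297 of 1103 FOXP3-undetected ones, with medians of 1.5 and 1. In the inhibitor graft these were 2 of 34 and 223 of 2097. Markers of pericytes and smooth muscle summed to 1313 and 1779 CPM, against 2487 and 2932 CPM, and single FOXP3-detected T cells held 179 and 188 of these UMIs. The helper T cells of the untreated graft carried 1531 CPM of myeloid markers and those of the inhibitor graft 78.3 CPM. The shares, the comparison with all FOXP3-undetected T cells and the day 7 ratios were repeated without cells holding 3 or more UMIs of another lineage's markers, which left 18 of the 36 and 28 of the 34 FOXP3-detected T cells. This was not done for the helper and cytotoxic T cells below, where the part of such RNA was not tested.

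The next comparison asked which genes set FOXP3-detected T cells apart from the other T cells of the same graft. UMIs were summed over the cells of each kind in each library, and the sums were tested with edgeR's quasi-likelihood test with the library as a block and Benjamini-Hochberg adjustment over all genes. Only the untreated and the inhibitor graft at day 7 had at least 10 FOXP3-detected T cells, so 4 sums entered each fit, with 1 residual degree of freedom, and libraries of different treatment served as the replicates. Genes named by the rule that chose the cells were left out of the tests. Against all FOXP3-undetected T cells, 118 of 9206 genes were higher (1.28%) and 279 lower (3.03%) at an adjusted p under 0.05. Against helper T cells, 73 of 3628 genes were higher (2.01%) and 121 lower (3.34%). Against T cells with RNA of CD8A, CD8B, GZMA, GZMB, NKG7 or PRF1, called cytotoxic T cells here, 148 of 7900 were higher (1.87%) and 299 lower (3.78%). Since 1 UMI of CD2 met the rule for T cells, natural killer cells were not separated from this group or from the FOXP3-undetected T cells. Of the 118 genes higher against all other T cells, 55 were also among the 73 higher against helper T cells (46.6% and 75.3% of the lists), although the helper T cells are part of the larger group and the FOXP3-detected T cells are the same in both comparisons.

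These counts depend on the test. With the DESeq2 Wald test 51 genes were higher and 95 lower against all FOXP3-undetected T cells, 4 and 14 against helper T cells, and 40 and 68 against cytotoxic T cells. Without the library block, edgeR's quasi-likelihood test gave 0 higher and 2 lower against helper T cells, with 423 genes at an unadjusted p under 0.05. Against all FOXP3-undetected T cells, 17 were higher and 58 lower when every cell was thinned to 1500 UMIs, and 24 and 38 when the compared cells were matched on depth. Among the genes of the lists or of the naming rule, 6 higher ones kept their call under DESeq2, without the block, matched on depth, without cells holding RNA of other lineages, and thinned, namely CTLA4, IL2RA, IKZF2, IKZF3, LAG3 and DAPL1. The 8 lower ones that did so were IL7R, CD74, SLA-DQB1, CCL4, NKG7, CTSW, GZMA and GZMH. Of the calls against helper T cells given below, those of IKZF2, IL2RA, LAG3, IL7R and SLA-DQB1 held with DESeq2 and none held without the block. Results are ordered below by what the genes do, and each describes the fit against all FOXP3-undetected T cells (other T cells) unless helper T cells are named.

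Transcription factors of the regulatory T cell programme came first. Of 20 tested genes on the identity list, 5 were higher and 3 lower, with a median log2 fold change of 0.40 against −0.09 over all genes. IKZF4 reached 78.8 and 70.8 CPM in FOXP3-detected T cells of the untreated and inhibitor graft, against 3.81 and 1.57 CPM in other T cells, which is a log2 fold change of 4.70 ± 0.68 (SE, adjusted p = 8.8e-10 by edgeR's quasi-likelihood test with Benjamini-Hochberg adjustment). IKZF2 stood at 302 and 425 CPM against 75.3 and 76.2 CPM, a log2 fold change of 2.14 ± 0.28. IKZF3, a further Ikaros family member called Aiolos, stood at 473 and 567 CPM against 131 and 99.8 CPM, a log2 fold change of 2.07 ± 0.25. For each of these Ikaros family genes both FOXP3-detected sums lay above both sums of the other T cells. Against helper T cells their log2 fold changes were 4.50 ± 0.70 for IKZF4, 2.09 ± 0.30 for IKZF2 and 1.62 ± 0.26 for IKZF3.

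GATA3, a factor of type 2 helper cells that skin regulatory T cells also use, stood at 414 and 230 CPM in the untreated and inhibitor graft, against 120 and 63.4 CPM in other T cells (log2 fold change 1.73 ± 0.28). TOX, a chromatin factor of chronically stimulated T cells, stood at 204 and 230 CPM against 44.8 and 42.4 CPM. FOXO1, a factor of the naive and memory list that maintains quiescence and supports FOXP3 expression, stood at 381 and 204 CPM against 92.2 and 74.4 CPM. In each case the FOXP3-detected sums were above the others. With all cells thinned to 1500 UMIs the log2 fold change of GATA3 was −0.13, and TOX and FOXO1 were not called. TOX was not called with cells matched on depth either. Lower members were ID3, an inhibitor of E proteins, and the antigen-receptor-induced nuclear receptors NR4A1 and NR4A3. ID3 stood at 72.2 and 8.85 CPM against 238 and 294 CPM, a log2 fold change of −2.65 ± 0.39. NR4A1 stood at 13.1 and 17.7 CPM against 118 and 104 CPM, a log2 fold change of −2.98 ± 0.58. ID3 and NR4A1 were also lower against helper T cells, at −3.17 and −2.82. Neither was called after thinning or without cells holding RNA of other lineages.

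All 3 chains of the interleukin 2 receptor were higher. IL2RA stood at 433 and 540 CPM in FOXP3-detected T cells of the untreated and inhibitor graft, against 104 and 88.0 CPM in other T cells and a log2 fold change of 2.23 ± 0.26 (adjusted p = 2.54e-15 by edgeR's quasi-likelihood test with Benjamini-Hochberg adjustment). IL2RB, the signalling beta chain, had a log2 fold change of 1.28 ± 0.28, and IL2RG, the chain shared with other cytokine receptors, one of 0.91 ± 0.27. IL2RG lost its call in each of the 5 alternatives and IL2RB in 3 of them. The opposite held for IL7R, the interleukin 7 receptor that regulatory T cells are known to carry at low level. It stood at 72.2 and 115 CPM against 291 and 334 CPM in other T cells and 386 and 725 CPM in helper T cells, with log2 fold changes of −1.87 ± 0.33 and −2.55 ± 0.32. Of 12 tested genes of the interleukin 2 receptor and STAT5 list, 3 were thus higher and 2 lower, the second being SOCS3, a brake on cytokine signalling, which turned to a log2 fold change of 0.66 without cells holding RNA of other lineages and of 0.014 after thinning.

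Co-inhibitory receptors followed. CTLA4 stood at 282 and 345 CPM in the untreated and inhibitor graft, against 37.9 and 38.4 CPM in other T cells (log2 fold change 2.93 ± 0.30) and 89.1 and 104 CPM in helper T cells (1.68 ± 0.30). LAG3, which binds MHC class II, stood at 374 and 230 CPM against 57.7 and 89.0 CPM, a log2 fold change of 2.0 ± 0.29. Its RNA came from few cells, 9 in the untreated graft, of which 1 held 23 UMIs, and 8 in the inhibitor graft. The other 7 tested members of this list were not called, among them TIGIT, at 39.4 and 26.6 CPM against 8.04 and 7.73 CPM (log2 fold change 2.0, adjusted p = 0.16 by edgeR's quasi-likelihood test with Benjamini-Hochberg adjustment), and PDCD1, which encodes PD-1, at 72.2 and 53.1 CPM against 19.5 and 33.0 CPM.

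Among costimulatory and TNF receptor genes, 5 of 10 tested were higher and none lower, with a median log2 fold change of 1.07. TNFRSF18 stood at 1083 and 752 CPM in the untreated and inhibitor graft, against 302 and 307 CPM in other T cells (log2 fold change 1.48 ± 0.24), and also exceeded helper T cells (0.92 ± 0.23). TNFRSF4 stood at 683 and 788 CPM against 252 and 281 CPM in other T cells (1.36 ± 0.24), but its log2 fold change was 0.76 with cells matched on depth and 0.69 after thinning, neither called. Helper T cells held 505 and 783 CPM of TNFRSF4, so the log2 fold change against them was 0.21 ± 0.23. ICOS, a costimulatory receptor of activated T cells, showed the same division, with 1.23 ± 0.27 against other T cells and 0.31 ± 0.27 against helper T cells. The adjusted p-values of TNFRSF4 and ICOS against helper T cells were 0.81 and 0.70 by edgeR's quasi-likelihood test with Benjamini-Hochberg adjustment. CD28, the main costimulatory receptor of T cells, and FAS, a death receptor, were higher against both, at 1.80 ± 0.30 and 1.56 ± 0.31 against other T cells. Matched on depth, TNFRSF18 and FAS were not called (0.77 and 0.75), and ICOS lost its call in 3 of the 5 alternatives.

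**Figure D3:**
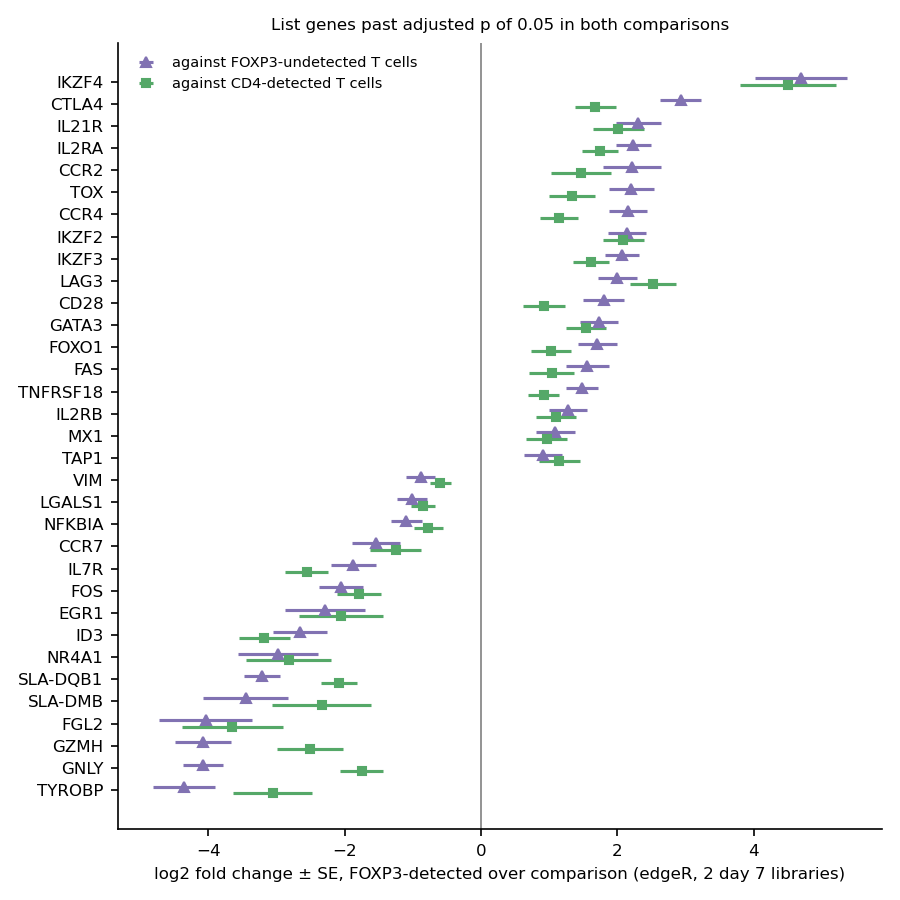
Log2 fold change (edgeR) of 33 genes of the lists that were called in the same direction against all FOXP3-undetected T cells and against helper T cells, 18 higher and 15 lower; points are fold changes and bars their standard errors. IKZF4 has the largest increase. That each gene lies on the same side of 0 in both comparisons follows from how the genes were picked. Both comparisons also share the same FOXP3-detected sums.

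Of 21 tested trafficking genes, 4 were higher and 2 lower. CCR4, a receptor for skin-homing chemokines, stood at 466 and 257 CPM in FOXP3-detected T cells of the untreated and inhibitor graft, against 106 and 48.8 CPM in other T cells, a log2 fold change of 2.16 ± 0.28, and exceeded helper T cells by 1.15. After thinning its log2 fold change was 0.73 and not called. CCR2, a receptor for monocyte chemoattractant chemokines, stood at 125 and 97.4 CPM against 27.7 and 17.2 CPM, a call lost in 3 of the 5 alternatives. CCR8, a receptor found on tissue regulatory T cells, was called higher (2.89 ± 0.90, adjusted p = 0.035 by edgeR's quasi-likelihood test with Benjamini-Hochberg adjustment) on only 5 and 3 UMIs, in 4 and 3 cells. CCR10, a further skin-homing receptor, had a log2 fold change of 2.67 at 32.8 and 44.3 CPM. CXCR3, the receptor for the interferon-induced chemokines CXCL9 to CXCL11, had no UMI in either FOXP3-detected sum and was at least 3.56-fold lower (floor of 3 counts over both sums). The CXCR3 call was lost without the block and after thinning. CCR7, which leads T cells to lymph nodes, was lower at 98.5 and 53.1 CPM against 223 and 200 CPM, a call lost with DESeq2 and after thinning.

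Receptors for alarmins and cytokines were mostly not called. The exception among 17 tested was IL21R, a receptor for the helper cytokine interleukin 21, at 335 and 115 CPM against 42.1 and 42.2 CPM (log2 fold change 2.31 ± 0.33). It was not called without cells holding RNA of other lineages (1.21) or after thinning (1.71). IL1RL1, the receptor for the alarmin interleukin 33 that marks many tissue regulatory T cells, stood at 72.2 and 53.1 CPM against 46.3 and 36.4 CPM, and the log2 fold change of 0.52 ± 0.46 did not pass the test.

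Genes of suppressive and repair effectors were not raised. None of 14 tested was higher and 4 were lower, with a median log2 fold change of −1.15. TGFB1 stood at 348 and 328 CPM in FOXP3-detected T cells, against 280 and 248 CPM in other T cells (0.26 ± 0.26, not called). AREG, the epidermal growth factor family ligand linked to repair by tissue regulatory T cells, had 0 UMIs in the untreated and 1 UMI in the inhibitor graft, or 0 and 8.85 CPM, against 127 and 242 CPM in other T cells, a log2 fold change of −5.65 ± 0.72. The AREG call held with DESeq2 and without the block and was lost after thinning. It was not tested matched on depth or without cells holding RNA of other lineages. The part of such RNA in the AREG level of other T cells was therefore not tested. FGL2, a secreted suppressor of antigen-presenting cells, stood at 13.1 and 0 CPM against 110 and 124 CPM. The FGL2 call held in 4 of the 5 alternatives, also without cells holding RNA of other lineages, and was lost after thinning. LGALS3 and LGALS1, which encode galectins, had log2 fold changes of −2.47 ± 0.43 and −1.01 ± 0.22. Without cells holding RNA of other lineages that of LGALS1 was −0.14, and both galectin genes lost their call there and after thinning. FGL2, LGALS3 and LGALS1 are also expressed by myeloid cells, whose markers were higher in the other T cells by the values given above. The part of myeloid RNA in the levels of these genes was not tested. IL10, the suppressive cytokine, came from 1 UMI in 1 cell of the untreated graft and 12 UMIs in 1 cell of the inhibitor graft. Its log2 fold change against helper T cells was −1.60 (adjusted p = 0.0089 by edgeR's quasi-likelihood test with Benjamini-Hochberg adjustment), but in the inhibitor graft alone it was 0.32.

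Cytotoxic and natural killer genes were lower in 11 of 22 tested cases and higher in none, with a median log2 fold change of −1.84. NKG7, a granule membrane protein, stood at 65.6 and 124 CPM in FOXP3-detected T cells of the untreated and inhibitor graft, against 272 and 535 CPM in other T cells (log2 fold change −2.19 ± 0.33). CTSW, a cathepsin of cytotoxic cells, stood at 59.1 and 79.7 CPM against 270 and 381 CPM (−2.33 ± 0.35). GZMA, a granzyme, stood at 125 and 212 CPM against 275 and 760 CPM (−1.63 ± 0.29). CCL4, a chemokine of activated cytotoxic cells that the naming rule picked, stood at 39.4 and 35.4 CPM against 1654 and 1268 CPM (−5.38 ± 0.36). For these genes both FOXP3-detected sums lay below both others. XCL1, a chemokine for cross-presenting dendritic cells, had no UMI and was at least 8.62-fold lower, a call lost in 3 of the 4 alternatives that tested it. GNLY, a pore-forming granule protein, was called lower at −4.07, and all of its 35 UMIs in FOXP3-detected T cells lay in 1 cell of the inhibitor graft. Against helper T cells, which were chosen without CD8A and CD8B, only GNLY, GZMH and TYROBP of 10 tested were lower, and NKG7, CTSW and GZMA were not called (−0.98 ± 0.37, −0.94 ± 0.42 and −0.28 ± 0.32).

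Genes of the T cell receptor and lineage list were higher in 5 of 10 tested cases, namely CD4, CD28, SKAP1 and the receptor modulators CD5 and CD6. CD5 stood at 98.5 and 159 CPM against 48.0 and 55.7 CPM in other T cells and CD6 at 91.9 and 133 CPM against 36.4 and 37.1 CPM. CD4 and CD5 lost their call in each of the 5 alternatives and CD6 and SKAP1 in 4 of them, while CD28 lost it only after thinning.

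Helper cytokine genes were near the limit of detection. Of 8 tested, IL22, a cytokine that acts on keratinocytes, was lower, with no UMI in FOXP3-detected T cells and at least a 3.56-fold difference. CD40LG, through which helper T cells license B cells and dendritic cells, stood at 46.0 and 53.1 CPM and was lower than in helper T cells, by a log2 fold change of −1.95 ± 0.42, but was not called against all other T cells (−0.67 ± 0.46).

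Immediate early genes, which stimulation and enzymatic digestion both raise, were lower in 3 of 13 tested cases and higher in none. FOS stood at 105 and 88.5 CPM in the untreated and inhibitor graft, against 312 and 470 CPM in other T cells and a log2 fold change of −2.05 ± 0.32, and EGR1 had one of −2.28. FOS lost its call only after thinning, and EGR1 in all but 1 of the alternatives that tested it. Of 15 tested genes of the NF-kB pathway, 4 were lower, among them the inhibitor NFKBIA at 762 and 584 CPM against 1384 and 1295 CPM. NFKBIA lost its call in 3 of the 5 alternatives, with a log2 fold change of −0.37 without cells holding RNA of other lineages, and CD83 and ICAM1 turned to 0.12 and 1.65 there. None of 11 heat shock genes and 1 of 16 glycolysis and hypoxia genes was called, the latter being VEGFA, with 0 UMIs in FOXP3-detected T cells and at least 2.86-fold lower. Of 20 naive and memory genes FOXO1 was higher and 4 were lower, namely IL7R, CCR7, ANXA1 and the intermediate filament gene VIM, whose log2 fold change of −0.88 became 0.088 without cells holding RNA of other lineages.

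Several MHC class II genes, which activated pig T cells also express, were lower. SLA-DQB1, a pig class II chain, stood at 151 and 310 CPM in FOXP3-detected T cells of the untreated and inhibitor graft, against 1764 and 2037 CPM in other T cells (log2 fold change −3.21 ± 0.26) and was lower than in helper T cells too (−2.08 ± 0.27). CD74, the class II invariant chain, stood at 4556 and 4780 CPM against 7140 and 7698 CPM (−0.77 ± 0.20). Of 9 tested antigen presentation genes 4 were lower, and TAP1, the peptide transporter of class I, was higher, a call whose log2 fold change became −0.019 after thinning. SLA-DQB1 and CD74 kept their call in all 5 alternatives. The other lower genes were SLA-DMA and SLA-DMB. SLA-DMA lost its call in each of the 5, and SLA-DMB lost it without cells holding RNA of other lineages and after thinning.

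Interferon response genes were called in 5 of 22 cases, 4 higher and 1 lower. MX1, an antiviral GTPase, stood at 98.5 CPM in FOXP3-detected T cells of the untreated graft and 540 CPM in those of the inhibitor graft, against 66.2 and 181 CPM in other T cells (log2 fold change 1.09 ± 0.29), and its level in the inhibitor graft's other T cells was above that in the untreated graft's FOXP3-detected T cells. GBP2, PSMB8 and PSMB9 were the other higher genes. CXCL10, a chemokine that draws CXCR3-bearing cells, was lower. All 5 calls were lost in each of the 5 alternatives named above. Cell cycle genes held 1 call among 15, STMN1, a microtubule regulator of dividing cells, at 190 and 168 CPM against 81.0 and 52.8 CPM. The STMN1 call was lost in 3 of the 5 alternatives.

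The naming rule added genes outside the lists. DAPL1 stood at 407 and 310 CPM in FOXP3-detected T cells, against 74.7 and 64.6 CPM in other T cells, a log2 fold change of 2.27 ± 0.28 seen in 19 cells of each library. ZC3H12D, an RNA-degrading regulator of T cell activation, stood at 125 and 204 CPM against 30.2 and 24.1 CPM, in 11 and 15 cells (2.47 ± 0.37). Neither ZC3H12D nor EYA3 was called after thinning or matched on depth. EYA3 stood at 112 and 115 CPM against 20.9 and 18.2 CPM, and MT3, a metallothionein, at 72.2 and 70.8 CPM against 13.1 and 9.56 CPM. MT3 was not called after thinning or without cells holding RNA of other lineages. RASGRP4, an activator of Ras signalling, had a log2 fold change of 3.73 ± 0.87 from 5 and 3 cells, and KLK7, a protease of keratinocytes, was called from 2 and 1 cells. Lower genes included products of other lineages. CXCL9, an interferon-induced chemokine, and FCER1G, an Fc receptor chain, had log2 fold changes of −7.02 and −6.50, from 1 UMI each in FOXP3-detected T cells. Their levels in other T cells were 94.5 and 910 CPM for CXCL9 and 352 and 290 CPM for FCER1G. HBB, a haemoglobin chain, was called too (−6.63), but 1 FOXP3-undetected T cell of the untreated graft held 2474 of the 2498 UMIs of erythroid markers there, so its level of 527 CPM describes that cell.

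The last comparison asked how FOXP3-detected T cells differed between the inhibitor and the untreated graft at day 7. The RNA of the cells was summed to 152331 UMIs in the untreated and 112974 UMIs in the inhibitor graft. With 1 library per treatment there is no test, so ratios of CPM are given with exact conditional binomial intervals at 95%, which cover counting error only, and genes are counted by a rule of size, 1.5-fold. Of 1205 genes with at least 30 UMIs over both sums, 167 were higher (13.9%) and 147 lower (12.2%) in the inhibitor graft, with a median log2 ratio of 0.02.

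Interferon response genes were mostly higher in the inhibitor graft. Of the 26 measured genes of the list, without any filter, 22 had a higher CPM there, 2 a lower one and 2 no UMI in either sum, whereas 48.2% of the 9182 genes with a UMI were higher. The summed level of the list was 4077 CPM in the untreated and 14154 CPM in the inhibitor graft, a ratio of 3.47. In the FOXP3-undetected T cells it was 3544 and 9794 CPM, a ratio of 2.76. Only 13 genes of the list had at least 30 UMIs, several of them through the inhibitor graft alone, so no count over these 13 is given. That selection favours high ratios in FOXP3-detected T cells and not in FOXP3-undetected ones. The ratios of both kinds of T cell are given side by side, and their difference was not tested. ISG15, a ubiquitin-like protein, stood at 440 CPM in the untreated and 2824 CPM in the inhibitor graft, a ratio of 6.42 (4.92 to 8.48), against 2.25 in FOXP3-undetected T cells, and was detected in 20 of 36 and 26 of 34 cells. MX1 stood at 98.5 and 540 CPM, a ratio of 5.48 (3.08 to 10.4), against 2.73. IRF7, the factor that amplifies type I interferon production, had a ratio of 7.82 (2.99 to 25.9) against 2.21, and IRF1, a factor induced mainly by interferon gamma, one of 5.96 (3.14 to 12.2) against 2.86. Without cells holding RNA of other lineages the log2 ratio of ISG15 moved from 2.68 to 3.68 and that of MX1 from 2.46 to 3.71, and after thinning that of ISG15 was 4.28.

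Not all interferon genes moved alike. IFI6 reached 1228 and 3372 CPM, a ratio of 2.75 that was near the 2.56 of FOXP3-undetected T cells, and GBP1 3.60 against 2.44. PSMB8 and PSMB9, subunits of the immunoproteasome, had ratios of 1.31 and 0.966. CXCL10 had 2 and 153 UMIs, but 128 of the 153 lay in 1 cell, and its ratio of 103 became 33.7 when the fullest cell was left out. IFIT1 was found in 1 cell of the untreated and 9 of the inhibitor graft.

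Cell by cell, the share of UMIs on the interferon list had a median of 0.355% in the untreated and 0.924% in the inhibitor graft. The highest cell of the untreated graft reached 1.31%, and 14 of 34 cells of the inhibitor graft lay above it, whereas the other 20 overlapped the untreated graft. The sums behind these shares were 621 and 1599 UMIs. Cells of 1 graft share their library, so this spread is not one between replicates.

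**Figure D4:**
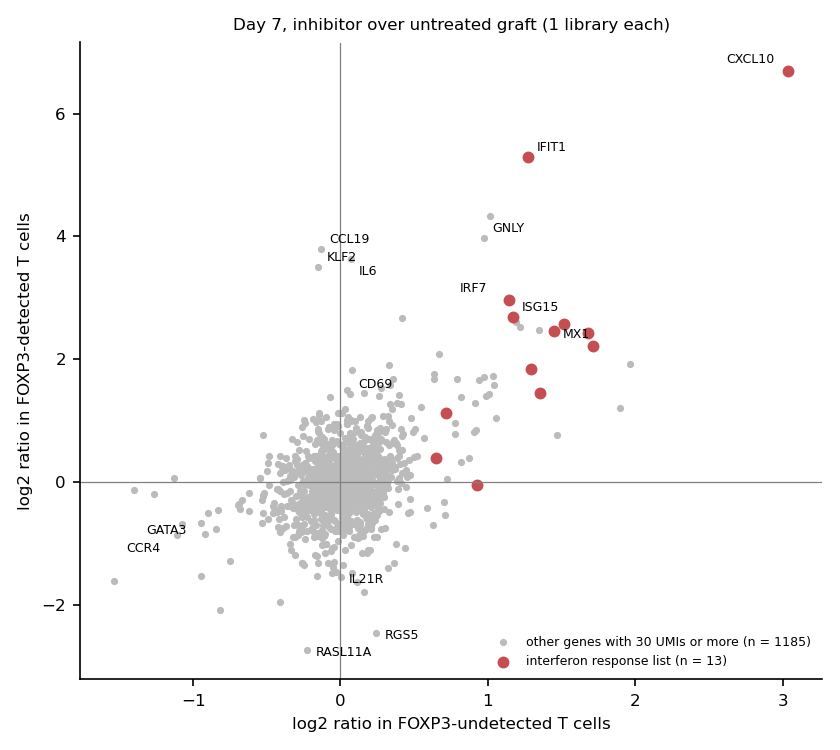
Log2 ratio of the inhibitor to the untreated graft at day 7 for each gene with at least 30 UMIs in FOXP3-detected T cells, on the vertical axis in FOXP3-detected and on the horizontal axis in FOXP3-undetected T cells; coloured points are 13 interferon response genes and grey points the other genes. Several interferon genes, and KLF2, reached 30 UMIs through the inhibitor graft alone. This selection favours high positions on the vertical axis but not on the horizontal one, so the heights of the 2 axes are not compared over these genes. KLF2 is high on the vertical axis only.

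KLF2, the factor that keeps T cells quiescent and drives their exit from tissue through S1PR1, was among the genes over the rule of size. It had 7 UMIs in 4 of 36 cells (11.1%) of the untreated graft and 59 UMIs in 17 of 34 cells (50%) of the inhibitor graft, or 46.0 and 522 CPM, a ratio of 11.4 (5.18 to 29.5). FOXP3-undetected T cells stood at 278 and 251 CPM, a ratio of 0.901, and helper T cells at 341 and 292 CPM. The level in FOXP3-detected T cells was thus under that of other T cells in the untreated graft and over it in the inhibitor graft, and KLF2 was not called in the test over both libraries (log2 fold change −0.30). Without the fullest cell of each library the ratio was 20.2. On the log2 scale the ratio of 3.51 became 5.38 without cells holding RNA of other lineages and 5.21 with at most 10% mitochondrial UMIs. KLF2 was found in 8 of the 14 cells above the untreated range of the interferon list and in 9 of the other 20. The difference between the ratios in the 2 kinds of T cell was not tested, since each condition is 1 library.

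**Figure D5:**
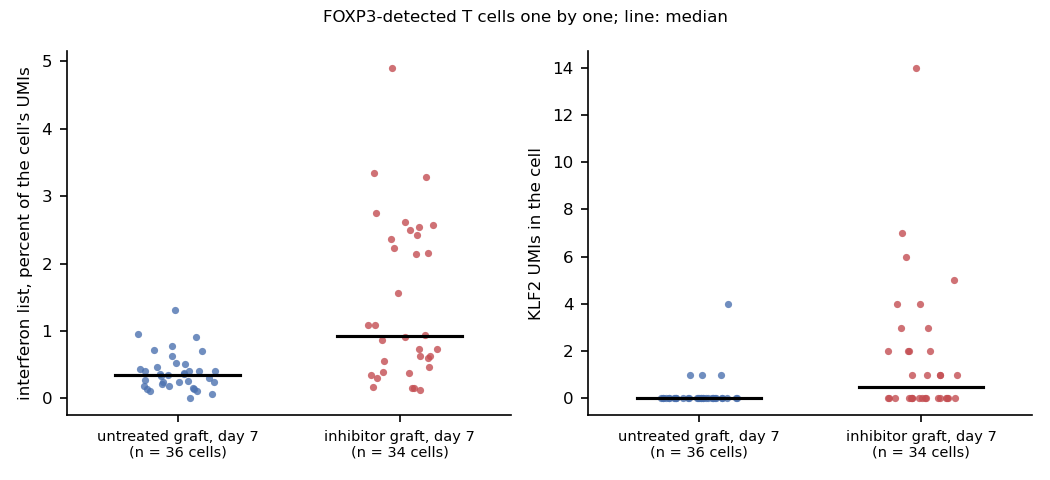
FOXP3-detected T cells of the untreated (36) and inhibitor graft (34) at day 7, each point 1 cell and the line the median, with the percent of UMIs on the interferon list on the left and KLF2 UMIs on the right. On the left 14 cells of the inhibitor graft lie above the highest untreated cell at 1.31%, and on the right 17 of 34 against 4 of 36 have KLF2.

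Other genes of tissue residence and exit were higher in the inhibitor graft by smaller ratios. CD69, which holds T cells in tissue by opposing S1PR1, had a ratio of 2.70 (1.34 to 5.72) and CXCR4, the CXCL12 receptor, one of 1.60 (1.22 to 2.10). S1PR1 itself had a ratio of 1.57 with an interval of 0.798 to 3.13 that includes no difference. Among cells with at least 2 FOXP3 UMIs the log2 ratio of CXCR4 was −0.97.

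Genes lower in the inhibitor graft came from several lists. On the identity list 3 of 9 genes with enough UMIs were lower, namely GATA3, PRDM1 and RUNX1, and 6 lay between. Of all 1205 genes with enough UMIs, 147 were lower (12.2%), and a list of 9 is short for such a count. The median log2 ratio of the identity list was 0.10, against 0.02 over all genes. IL21R had a ratio of 0.344 (0.171 to 0.641), where FOXP3-undetected T cells had 1.0, and with at least 2 FOXP3 UMIs its log2 ratio moved from −1.54 to −3.53. PRDM1, which encodes Blimp-1, a factor of effector regulatory T cells, had a ratio of 0.462 (0.218 to 0.912) against 1.02, and LAG3 one of 0.615 (0.371 to 0.994) against 1.54. As given above, the LAG3 RNA came from few cells, and a single cell of the untreated graft held a large part of that graft's LAG3 UMIs. FOXO1 had a ratio of 0.535 (0.315 to 0.880) against 0.807. GATA3 and CCR4 had ratios of 0.556 (0.338 to 0.892) and 0.551 (0.345 to 0.859), and here the FOXP3-undetected T cells had similar ones, 0.529 and 0.463. TNFRSF1B, the second TNF receptor, which sustains regulatory T cells, had a ratio of 0.597 (0.389 to 0.900), and its log2 ratio after thinning was 0.045.

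The defining markers stayed within 1.5-fold. CTLA4 had a ratio of 1.22 (0.772 to 1.93), IL2RA one of 1.25 (0.865 to 1.79), TNFRSF4 one of 1.15 (0.860 to 1.55), and IKZF2 one of 1.41 (0.919 to 2.16). These intervals include no difference, and their upper bounds lie above 1.5-fold. TNFRSF18 was lower at 0.695 (0.528 to 0.908), short of the rule of size, and TGFB1 had a ratio of 0.941.

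Several of the extreme ratios rested on single cells. CCL19, with 205 UMIs, IL6, with 37, and GNLY, with 35, each had all of them in 1 cell of the inhibitor graft, and 108 of the 196 UMIs of CCL5 there lay in 1 cell. RASL11A, a small GTPase with the lowest ratio among the named genes (0.15), had 22 of 27 UMIs in 1 cell of the untreated graft, RGS5, a pericyte gene, 70 of 74, and APOE all 40. These ratios describe those cells and not the groups. Ratios of more than 1 cell included those of KLF2, ISG15 and IRF7 above, SNX10, an endosomal protein, at 6.07 from 18 of 34 cells (10.8 without the fullest cell), SMCHD1, a chromatin regulator, at 6.36 (6.52), and MANF, an endoplasmic reticulum stress protein, at 0.289 (0.281).

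At day 90 the 3 cells can only be described one by one. In the untreated graft the first cell had 10750 UMIs, 1 FOXP3 UMI, 1 ICOS UMI and none of CTLA4, IL2RA or TNFRSF4. It also held 34 UMIs of cytotoxic and natural killer markers (GZMA, GZMH, PRF1, NKG7 and CTSW), where each of the other cells held 1. The second had 5007 UMIs, with 1 of FOXP3, 1 of CTLA4, 2 of TNFRSF4 and 1 of CD4, and no IL2RA. The cell of the inhibitor graft was the shallowest at 2080 UMIs, and yet held 2 FOXP3 UMIs, 3 each of CTLA4, IL2RA and TNFRSF4, 2 of ICOS and 1 of TIGIT. The full set of markers was therefore present in 1 of the 3 cells, and no level at day 90 could be compared with day 7.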

How the data were processed

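Per the labels' protocols, enzymatically released pig skin cells were captured with 10x Genomics 3′ chemistry and sequenced on an Illumina HiSeq instrument, 1 library per group. The deposited values are whole-number UMI counts per gene and cell barcode that the authors made with Cell Ranger, per the submitters' processing notes, which also name Seurat 3.1.1 for steps not used here. The matrix headers give software version 3.1.0 without naming it. The genome build is not given in the sources used here. A symbol could be given to 15351 of the 20286 genes, for 677 through a RefSeq gene table.

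The members and gene lists were chosen with earlier results of these data known. The 18 lists hold 324 genes, of which 280 were measured. Beside list genes, the text names by rule, for each edgeR comparison, the genes of largest log2 fold change among those called and changed alike in both libraries, and, for the day 7 ratio, the highest and lowest ratios. KLF2 lies on 2 of the lists. The mention of single cells that hold most UMIs of a gene was chosen after values were seen. Doublets were scored with Scrublet in Scanpy 1.11.5. The threshold it set by itself marked 124 and 1 cells at day 7, so the 724 and 939 cells of highest score (a rate that grows with the number of cells) were removed instead, in an alternative only.

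UMIs were summed per library and kind of cell. edgeR 4.0.16 (R 4.3.3, limma 3.58.1) tested FOXP3-detected T cells against 3 sets of other T cells with TMM normalization, its filter on low counts and the library as a block. The 2 libraries stand for replicates of the contrast. With 1 residual degree of freedom, p-values rest mainly on a spread that edgeR estimates over many genes together. They measure little of a single gene's own spread between these 2 libraries. Standard errors were computed from the log2 fold change and the F statistic of the test. Self-tests were run on simulated data. Alternatives included DESeq2 1.42.0. CPM are counts per 1000000 UMIs of a sum. Sums and intervals came from pandas 2.3.3, SciPy 1.17.1 and NumPy 2.4.6 under Python 3.11.15, and plots from Matplotlib 3.10.9. Day 90 and unwounded skin, with 2, 1 and 0 cells, entered no comparison of levels. No sequences or coordinates are used here.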

Additional observations from a re-analysis of the deposited data

How the results depend on the processing

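The limits are the shallow depth per T cell, at which FOXP3 can be missed, and 1 library per condition. Of the shares, requiring at least 2 FOXP3 UMIs gave 1.40% of T cells in the untreated and 0.375% in the inhibitor graft at day 7, a ratio of 0.267, and 0% in the untreated graft at day 90. Thinning to 1500 UMIs gave 1.06% in the inhibitor graft at day 7. Thinning, or removing cells with RNA of other lineages, also gave 0% in the untreated graft at day 90. The other alternatives kept the shares within their counting intervals. The cause was not tested for these or the following changes.

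Against all FOXP3-undetected T cells, higher genes numbered 51 with DESeq2, 24 with cells matched on depth and 17 after thinning, against 118. Lower genes numbered 95, 38 and 58 in these settings, 171 with at least 3 UMIs of T cell genes, 485 without doublet-scored cells and 153 without cells holding RNA of other lineages, against 279. Against helper T cells, DESeq2 gave 4 higher and 14 lower, and no filter on low counts gave 32 higher. Against cytotoxic T cells, DESeq2 gave 40 and 68, and no filter gave 81 higher. The samples are paired by library, so the main design holds a library block. Without the block, 0 genes were higher and 2 lower against helper T cells, and 54 and 79 against cytotoxic T cells. Against all FOXP3-undetected T cells the counts without the block were 87 and 194. Each value without 1 of the libraries has no residual degree of freedom and so no test.

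Log2 fold changes that turned against all FOXP3-undetected T cells without cells holding RNA of other lineages were those of CD83 (0.12), CXCL10 (0.38), ICAM1 (1.65), PSMB8 (−0.041), SOCS3 (0.66) and VIM (0.088). After thinning GATA3 (−0.13), SOCS3 (0.014) and TAP1 (−0.019) turned. With 1 library left out, IL10 ranged from −5.10 to 0.32 against helper T cells and from −4.45 to 0.15 against cytotoxic T cells. Genes with no UMI in the FOXP3-detected sum that remained got no value.

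In the day 7 ratio, 18.8% of genes were lower with at least 2 FOXP3 UMIs and 20.4% when genes needed only 10 UMIs, against 12.2%. Log2 ratios that turned were those of CXCR4 (−0.97), NFKB1 (0.26) and TUBA1B (0.12) with at least 2 FOXP3 UMIs, HMGB2 (−1.08) without cells holding RNA of other lineages and TNFRSF1B (0.045) after thinning. IER3 (−0.31) turned when the fullest cell of each library was left out, an alternative chosen after seeing the data. Leaving out 3 single cells, also chosen after seeing the data, turned none. The edgeR tests were not run for cells with at least 2 FOXP3 UMIs, which left 8 in the inhibitor graft, nor were ratios at day 90, with 2 and 1 cells.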
